A study of Chlamydomonas reinhardtii with 9 samples.

Results

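Convergent genes are neighbours that are transcribed toward each other, the left one from the plus strand and the right one from the minus strand. When their annotated ends run past each other, the 3′ ends of both transcripts are complementary over the shared stretch. In the nuclear genome of Chlamydomonas reinhardtii, a unicellular green alga, 1693 neighbouring pairs met this rule, out of 14493 neighbouring pairs of nuclear genes. Genes were sorted by their smallest start on each chromosome, and a pair was taken when the left gene was on the plus strand, the right gene on the minus strand and their spans shared 1 base or more. No measured value entered this rule, although earlier results of these data were known when it was chosen. Neighbours are neighbours among the 14621 genes listed in the deposited tables, of which 14540 were nuclear. The pairs held 3386 genes, 23.3% of the nuclear genes, and no gene was in more than 1 pair.

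The RNA came from WT, crpaf1-1 and crskip-1 cells, with 3 libraries per group. PAF1 is a subunit of a protein complex that accompanies RNA polymerase II along genes and is known in yeast and animals for roles in elongation, chromatin marking and the formation of transcript 3′ ends. SKIP is a conserved protein that works in the spliceosome and in transcription. At converging genes both polymerases run toward the same stretch of DNA, so the partners can share their termination region, and in compact genomes such pairs are common.

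Every library was of strain CC5325, and all 3 groups were grown alike in liquid TAP, an acetate medium, at 22 °C with 14 h of light and 10 h of darkness per day, and collected late in G1. RNA with poly(A) tails was selected with oligo(dT) beads and sequenced as paired ends, although the molecule field of the labels reads genomic DNA. The labels do not say how the mutants were made, whether each is 1 line, or whether replicates came from different cultures. The p-values therefore measure only how far these libraries vary, and that variation may be technical. The genes mutated in crpaf1-1 and crskip-1 were not analysed here, so their levels give no check of the labels. Libraries held 13907142 to 19725439 counts, and log2 CPM (counts scaled to library size) correlated at 0.993 to 0.995 within groups. The deposited IDs end in _4532.v6.1, which is left out of the names below, and that suffix is the only name of the assembly in the sources used here. No deposited gene could be given a symbol or a function, because none of the 3216 member genes found in the reference table has a symbol there.

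Most overlaps were short and lay at the very ends of both genes. The shared stretch was 1 to 5911 bases long, with a median of 259 bases and quartiles of 133 and 568 bases. It fell inside the last exon of both partners in 1509 pairs (89.1%). Exons of the partners shared bases in 1688 pairs, and in the other 5 pairs the spans overlapped only through introns. One gene lay wholly inside the other in 19 pairs. In 905 pairs another listed gene also overlapped a partner, and values of those genes are less certain for that reason. Overlapping pairs made up 44.0% of all convergent pairs, and the remaining 2157 convergent pairs were apart. At the edge of the rule, 10 pairs overlapped by 1 to 5 bases and 32 convergent pairs had 0 to 5 bases between their ends. Members were found on all 17 chromosomes, with 1 pair on a contig. Their share of a chromosome's genes was lowest on chromosome 15, at 7.39%, and highest on chromosome 2, at 28.7%. Member genes had a median exonic length of 2969 bases in a median of 8 exon blocks (exons merged where they overlap within a gene), against 2920 bases and 7 blocks for all nuclear genes.

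**Figure D1:**
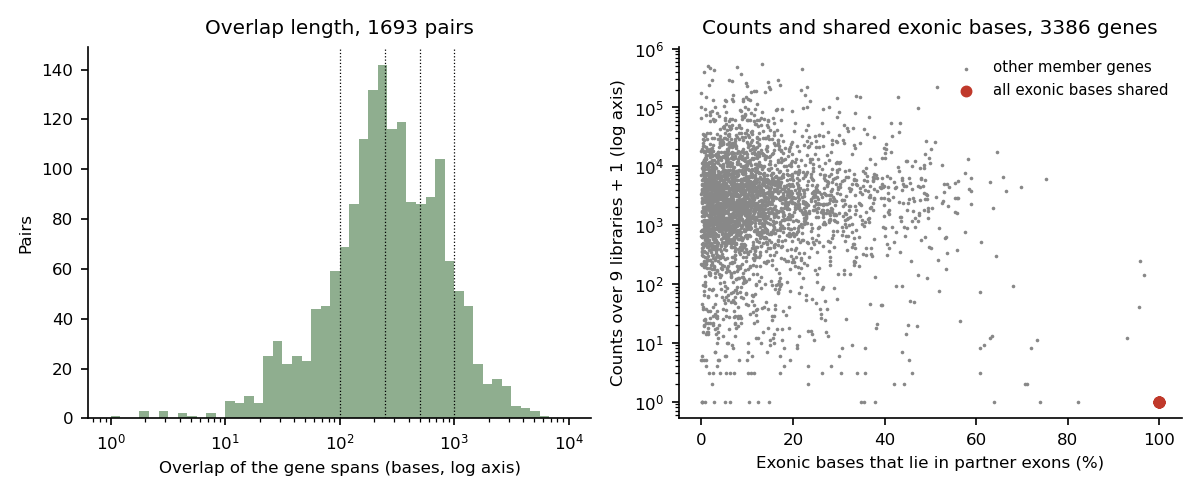
Left, the overlap of the spans of the 1693 pairs in bases on a log axis, with dotted lines at the class limits of 100, 250, 500 and 1000 bases; the median is 259 bases. Right, for each of 3386 member genes, the share of its exonic bases that lie in exons of its partner against its counts summed over the 9 libraries plus 1, on a log axis; the 8 genes at 100% (red, on top of one another) all sit at 0 counts.

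Member genes without an exonic base of their own were at 0. All 8 member genes whose exonic bases lay entirely in partner exons were listed at 0 counts in every library. They had 614 to 1840 exonic bases. Their partners had mean levels of 1.20 to 112 RPKM, here CPM by total counts per kilobase of all exonic bases, shared ones included. Over all nuclear genes, 19 of 19 genes without an exonic base of their own were at 0, while 93 of 14521 genes (0.640%) with such bases were at 0. The median summed count was 2395 for the 1825 members with under 10% of their exonic bases shared, 2426 for the 169 members with 40 to under 90% shared, and 88.5 for the 4 members with 90 to under 100% shared. The way reads in shared exons were counted is not stated, and its part in these zeros was not tested. The bases concerned were usually a small part of a gene, since a median of 9.13% of a member's exonic bases lay in partner exons. The sources used here do not give the strand setting of the counting, so reads of a partner that ran on past its annotated end into the other gene cannot be told from that gene's own reads.

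Both members of 1463 pairs passed the filter on low counts, 1 member passed in 216 pairs and neither passed in 14 pairs. In all, 3142 of the 3386 member genes passed and were tested with edgeR's quasi-likelihood test, fitted on all 13376 genes that passed, with Benjamini-Hochberg adjustment over all of them. A gene is called higher or lower here when its adjusted p was under 0.05, and a pair is said to move in opposite directions only when both partners were called.

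Member genes changed about as often as genes in general. In crpaf1-1 against WT, 837 members were higher and 968 were lower. That is 57.4% of the members tested, against 58.4% of all genes (28.6% higher and 29.8% lower). In crskip-1 against WT, 806 were higher and 774 lower, 50.3% of the members tested against 49.5% of all genes (24.4% higher and 25.1% lower). In crpaf1-1 against crskip-1, 726 were higher and 958 lower, 53.6% against 53.8% of all genes (25.7% higher and 28.2% lower). CPM did not overlap between the groups for 63.8% of the members tested in crpaf1-1 against WT, where 64.1% of all genes did not overlap. The same shares were 57.5% against 56.4% in crskip-1 against WT and 58.9% against 59.3% between the mutants. The comparisons with WT share the same 3 WT libraries. Each library pools many cells, so fewer cells with a transcript and less transcript per cell cannot be told apart.

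Large changes against WT were mostly decreases. At 2-fold or more, 59 members were higher and 221 lower in crpaf1-1 against WT, where 2.50% of all genes were higher and 6.30% lower by that much. In crskip-1 against WT the counts were 65 and 142, where 1.82% and 5.06% of all genes passed. Between the mutants, 97 members were at least 2-fold higher in crpaf1-1 and 109 lower, where 3.98% and 2.98% of all genes passed. The median member changed by -0.01 in crpaf1-1 and 0.01 in crskip-1 on the log2 scale, and the median of all genes by 0.01 and 0.00. Plus-strand and minus-strand members were called at similar rates, 57.9% and 57.0% in crpaf1-1 and 49.2% and 51.3% in crskip-1.

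The split of calls into higher and lower rests on the scaling between libraries. With TMM scaling, 46.4% of the called members were higher in crpaf1-1 against WT, 51.0% in crskip-1 against WT and 43.1% in crpaf1-1 against crskip-1. Scaled by total counts only, all genes had a median of 0.09, -0.12 and 0.20 on the log2 scale, and these shares became 58.7%, 28.2% and 73.8%. Within lane 2, which held replicates 2 and 3 of each group, 699 members were higher and 860 lower in crpaf1-1, and 640 higher and 693 lower in crskip-1. Between the mutants, lane 2 gave 633 higher and 800 lower. Lane 3 held 1 library per group and gives no test of its own.

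Member genes together took a slightly smaller share of the counts in both mutants than in WT. The share was 21.83%, 21.80% and 21.84% in the WT libraries, 21.41%, 21.46% and 21.44% in crpaf1-1, and 21.77%, 21.64% and 21.68% in crskip-1. No crpaf1-1 or crskip-1 library reached the lowest WT library. The differences from WT were -0.391 percentage points for crpaf1-1 and -0.127 for crskip-1 (exact two-sided permutation test over libraries, n = 3 against 3, p = 0.1 for each, the smallest p this design allows). Without the pairs that another gene overlaps, the crskip-1 difference turned to 0.0392 percentage points.

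With TMM scaling, when both partners of a pair changed, they moved in opposite directions about as often as in the same direction. In crpaf1-1 against WT, 252 of the 1463 pairs tested moved in opposite directions (17.2%, against 15.6% of all neighbouring pairs) and 232 in the same direction (15.9%, against 18.8% of all neighbouring pairs). Of the latter, 110 had both partners higher and 122 both lower, where 8.87% and 9.89% of all neighbouring pairs did so. In crskip-1 against WT, 192 pairs moved in opposite directions (13.1%, against 11.2%) and 177 in the same direction (12.1%, against 14.2%), the latter with 102 both higher and 75 both lower, where 7.17% and 7.00% of all neighbouring pairs did so. In crpaf1-1 against crskip-1, 209 pairs moved in opposite directions (14.3%, against 13.4%) and 227 in the same direction (15.5%, against 16.5%), with 73 both higher and 154 both lower, where 7.51% and 8.97% of all neighbouring pairs did so. The plus-strand partner was the higher one in 124 of the 252 opposite pairs in crpaf1-1 and in 94 of the 192 in crskip-1.

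Both partners were called in 33.1% of the overlapping pairs in crpaf1-1, against 34.3% of all neighbouring pairs, and in 25.2% against 25.4% in crskip-1 and 29.8% against 29.9% between the mutants. Among pairs with both partners called, 52.1% moved in opposite directions in crpaf1-1 and 52.0% in crskip-1. The same shares were 46.0% and 49.9% for convergent pairs apart, 39.5% and 41.1% for head-to-head pairs (transcribed away from each other), and 47.2% and 42.1% for neighbours on the same strand. No test of these differences between kinds of neighbour was made. Across the 1463 overlapping pairs, the partners' log2 fold changes had a Spearman's rho of -0.01 in crpaf1-1 and -0.03 in crskip-1. For convergent pairs apart rho was 0.04 and 0.03 (n = 1791), for head-to-head pairs 0.15 and 0.09 (n = 3452), and for same-strand neighbours 0.05 and 0.09 (n = 5651). These values describe partners measured in the same libraries, and pairs are not replicates.

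**Figure D2:**
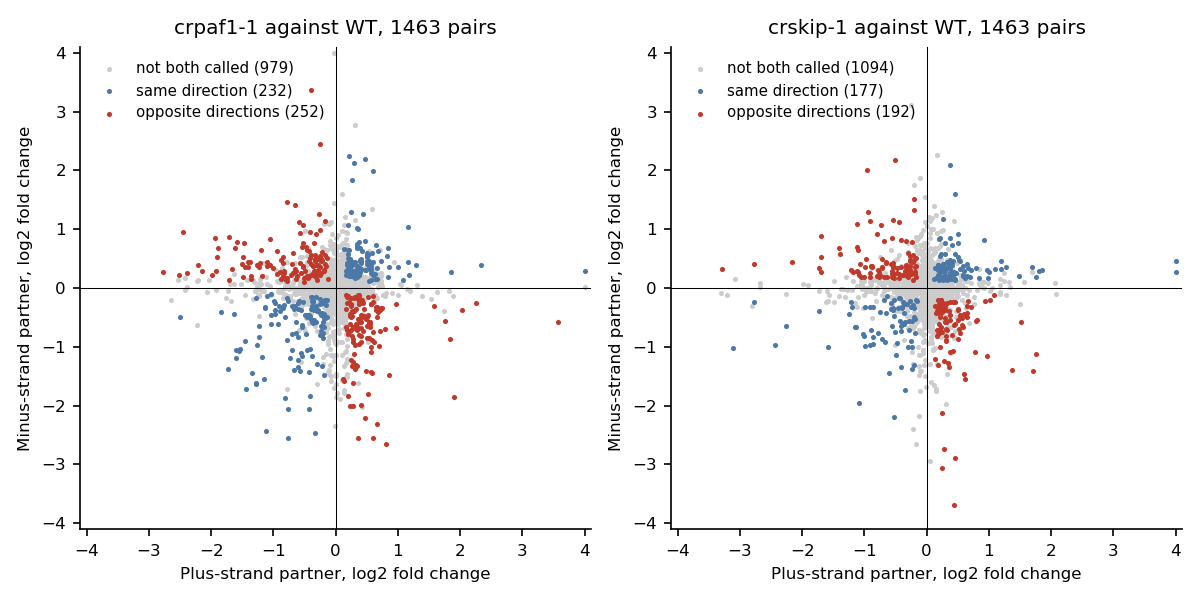
Log2 fold change of the minus-strand partner against that of the plus-strand partner, 1 point per pair, for crpaf1-1 (left) and crskip-1 (right) against WT; values beyond 4 are drawn at the edge. Red pairs moved in opposite directions (252 and 192), blue pairs in the same direction (232 and 177), and grey pairs did not have both partners called; the points spread along the axes rather than along either diagonal.

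Large opposite changes were rare. Both partners changed by 2-fold or more in opposite directions in 1 pair in crpaf1-1, 4 in crskip-1 and 5 between the mutants, where 0.186%, 0.170% and 0.170% of all neighbouring pairs did so. Both changed by that much in the same direction in 13 pairs in crpaf1-1, 12 of them lower, in 3 pairs in crskip-1, all lower, and in 0 pairs between the mutants, where 0.720%, 0.542% and 0.388% of all neighbouring pairs did so.

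The ratio of plus-strand to minus-strand partner tests the difference between partners itself. It was fitted with limma on log2 ratios over all 12357 neighbouring pairs in which both genes passed the filter. The ratio changed (adjusted p under 0.05) in 844 overlapping pairs in crpaf1-1 against WT, 57.7% of them against 56.9% of all neighbouring pairs. In crskip-1 against WT it changed in 783 pairs, 53.5% against 50.0%, and between the mutants in 800 pairs, 54.7% against 53.0%. All 252 and 192 opposite pairs were among those with a changed ratio. So were all 1926 and 1382 opposite pairs among all neighbouring pairs, since 2 called changes of opposite sign leave little room for another outcome. This overlap is therefore no separate evidence. Of the pairs that moved the same way, 96 of 232 and 69 of 177 had a changed ratio. Among all neighbouring pairs these counts were 979 of 2318 and 659 of 1751. The ratio shifted toward the plus-strand partner in 415 pairs and toward the minus-strand partner in 429 in crpaf1-1, and in 404 and 379 in crskip-1.

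By overlap length, the share of pairs that moved in opposite directions varied little in the comparisons with WT and more between the mutants. Opposite moves in crpaf1-1 were found in 18.5% of the 259 tested pairs that overlap by under 100 bases, 17.6% of 448 pairs with 100 to under 250 bases, 17.9% of 351 with 250 to under 500, 15.8% of 266 with 500 to under 1000 and 14.4% of 139 with 1000 bases or more. In crskip-1 the same classes gave 13.5%, 13.2%, 14.0%, 12.4% and 11.5%. The shares were lowest in the class with the longest overlaps in both mutants, where single genes were also called least often: 52.9% of its genes in crpaf1-1 and 45.0% in crskip-1, against 61.2% and 50.8% in the class under 100 bases. Same-direction moves were found in 18.5%, 13.8%, 17.7%, 16.2% and 12.2% of the classes in crpaf1-1, and in 11.6%, 11.4%, 13.4%, 12.4% and 11.5% in crskip-1. Of the pairs with both partners called, opposite moves were 54.1% in the longest class and 50.0% in the shortest in crpaf1-1, and 50.0% and 53.8% in crskip-1. In crpaf1-1 against crskip-1, opposite moves were found in 16.6%, 14.3%, 15.7%, 12.0% and 10.8% of the classes, from short to long overlap, and same-direction moves in 13.1%, 13.4%, 14.8%, 20.7% and 18.7%. Opposite moves there were 55.8%, 51.6%, 51.4%, 36.8% and 36.6% of the pairs with both partners called, so that the share was lowest in the pairs that overlap by 500 bases or more. Those last 2 shares rest on few pairs, 32 of 87 and 15 of 41. The same share was 44.8% over all neighbouring pairs, 48.0% for convergent pairs apart, 41.6% for head-to-head pairs and 44.8% for same-strand neighbours.

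Across the 1463 pairs, overlap length and the absolute change of the partner ratio had a Spearman's rho of -0.02 in crpaf1-1, -0.06 in crskip-1 and -0.07 between the mutants. Overlap length and the mean log2 fold change of the partners had a rho of -0.06, -0.03 and -0.06. The median absolute change of the ratio was 0.44 on the log2 scale in the class under 100 bases and 0.40 in the class of 1000 bases or more in crpaf1-1, and 0.44 and 0.31 in crskip-1. The longest class also had the smallest share of genes called higher in crpaf1-1, 20.1% against 32.2% in the shortest, while the shares called lower were 32.7% and 29.0%. Pairs with overlap beyond the last exon of a partner moved in opposite directions in 26 of 148 cases in crpaf1-1 and 25 of 148 in crskip-1, against 226 and 167 of the 1315 pairs with the overlap inside both last exons. No test between classes was made. Only 5 of the 19 pairs with one gene inside the other had both partners tested, and of these 1 moved in opposite directions in crpaf1-1 and 0 in crskip-1 by the edgeR calls.

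**Figure D3:**
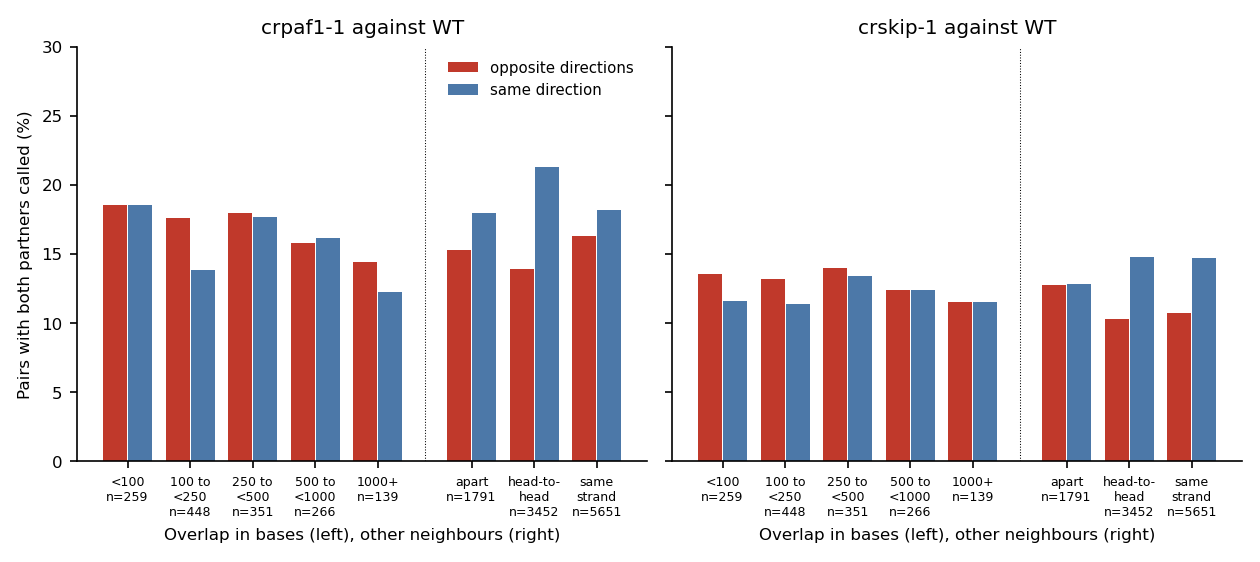
Share of tested pairs, in percent, whose partners moved in opposite directions (red) or in the same direction (blue) in crpaf1-1 (left) and crskip-1 (right) against WT, by overlap length and, right of the dotted line, for the other kinds of neighbour. Each bar is 1 share over n pairs, so it has no error bar; opposite moves lie between 14.4% and 18.5% in crpaf1-1 and between 11.5% and 14.0% in crskip-1 over the 5 overlap classes.

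Partners differed widely in level, as other neighbours did. RPKM here and below is CPM per kilobase of unshared exonic sequence. Among pairs with both partners tested, the median level of a gene in WT was 7.25 RPKM, against 6.68 RPKM over all neighbouring pairs. The median gap between partners was 4.28-fold, against 3.85-fold over all neighbouring pairs and 4.03-fold for convergent pairs apart. Levels of the partners had a Spearman's rho of 0.10 in WT across the 1463 pairs. The same rho was 0.12 over all neighbouring pairs and 0.14 for convergent pairs apart.

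In pairs whose partners differed over 16-fold in mean level, the stronger partner was called more often than the weaker one. The mean is over all 9 libraries, mutants included, so a partner's own change enters the choice of stronger and weaker. In crskip-1 the stronger partner was higher in 131 and lower in 49 of these 303 pairs, and the weaker partner was higher in 51 and lower in 83. In crpaf1-1 the stronger partner was higher in 95 and lower in 104, and the weaker one in 61 and 80. Of the convergent pairs apart, 379 had a gap over 16-fold. In crskip-1 their stronger partner was higher in 183 and lower in 53, and the weaker one in 47 and 117. In crpaf1-1 their stronger partner was higher in 152 and lower in 121, and the weaker one in 99 and 115. No test between overlapping pairs and pairs apart was made. Pairs with a gap under 2-fold gave 93 higher and 78 lower stronger partners in crskip-1, and 79 and 95 weaker ones. At so small a gap, a change in a mutant can itself decide which partner counts as stronger. These last counts therefore cannot show whether direction goes with level. Weaker partners have fewer counts, and the part of this in the difference between stronger and weaker partners was not tested. Opposite moves took up 59.5% of the pairs with both partners called at a gap over 16-fold in crskip-1 (47 of 79) and 47.3% at a gap under 2-fold (44 of 93).

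The 4 opposite pairs with the largest changes in crpaf1-1 each joined a gene that fell to one that rose, and in 3 of them the partner that fell had the higher RPKM in WT. Opposite pairs named for a comparison were chosen among those whose compared groups do not overlap. Separation of those groups is therefore no separate finding. The pair Cre08.g362600 and Cre08.g362650, on chromosome 8, was the only one of the 252 in which both partners changed by 2-fold or more. The minus-strand gene Cre08.g362650 (1103938 to 1114995) measured 43.9, 51.4 and 50.0 CPM in WT, 12.0, 13.6 and 14.7 in crpaf1-1 and 25.5, 28.0 and 27.1 in crskip-1. It was thus highest in WT, lowest in crpaf1-1 and between them in crskip-1, with no overlap of the groups, and it was 3.61-fold lower in crpaf1-1 (log2 -1.85 ± 0.08 SE, edgeR adjusted p = 9.52e-12). Its plus-strand partner Cre08.g362600 (1097895 to 1104182) measured 0.405, 0.217 and 0.488 CPM in WT, 1.31, 1.54 and 1.44 in crpaf1-1, and 0.540, 0.535 and 0.470 in crskip-1. This weak gene was higher in each crpaf1-1 library than in any other library, 3.72-fold against WT (log2 1.90 ± 0.32 SE, edgeR adjusted p = 6.38e-05), and was not called in crskip-1 (edgeR adjusted p = 0.422). The partners share 245 bases, all inside their last exons, and no other gene overlaps them. The plus-to-minus ratio rose by 3.54 ± 0.33 (SE) on the log2 scale in crpaf1-1 and by 1.26 ± 0.33 in crskip-1 (limma adjusted p = 9.74e-09 and 0.00307).

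In the pair on chromosome 17 with 275 shared bases and no other gene, the weaker partner fell. The plus-strand gene Cre17.g704100 (1136272 to 1139594) measured 2.08, 2.60 and 1.40 CPM in WT, 0.188, 0.371 and 0.555 in crpaf1-1, and 0.405, 0.0669 and 0.470 in crskip-1. Both mutants lay below every WT library, 5.45-fold and 6.42-fold lower (log2 -2.45 ± 0.39 and -2.68 ± 0.44 SE, edgeR adjusted p = 4.29e-05 and 7.93e-05). The mutant levels were near 0, so the sizes of these changes are imprecise. Its minus-strand partner Cre17.g704150 (1139320 to 1142422) measured 10.2, 10.1 and 10.9 CPM in WT, 21.5, 20.1 and 18.4 in crpaf1-1, and 11.1, 12.2 and 9.56 in crskip-1. It was 1.93-fold higher in crpaf1-1 (log2 0.95 ± 0.09 SE, edgeR adjusted p = 1.65e-07), while crskip-1 overlapped WT and was not called (edgeR adjusted p = 0.511). Between the mutants the ratio was not called (log2 -0.59 ± 0.46 SE, limma adjusted p = 0.289), although the minus-strand partner was 1.82-fold higher in crpaf1-1 than in crskip-1 (edgeR adjusted p = 8.10e-07).

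The pair on chromosome 13 that shares 106 bases moved in opposite directions in both mutants. The plus-strand gene Cre13.g589300 (3832042 to 3838457) measured 38.5, 46.1 and 45.9 CPM in WT, 12.5, 12.3 and 15.2 in crpaf1-1, and 23.0, 23.9 and 20.9 in crskip-1. Its minus-strand partner Cre13.g589350 (3838352 to 3843359) measured 8.09, 10.1 and 12.1 CPM in WT, 16.9, 15.2 and 23.4 in crpaf1-1, and 24.3, 21.9 and 28.1 in crskip-1. Neither gene's mutant values overlapped WT. Per length, the partners stood at 13.6 and 2.44 RPKM in WT, and close together at 4.17 and 4.46 RPKM in crpaf1-1 and 7.08 and 5.97 RPKM in crskip-1. The first gene fell 3.27-fold in crpaf1-1 and 1.92-fold in crskip-1 (edgeR adjusted p = 6.85e-11 and 1.75e-07). The second rose 1.83-fold and 2.45-fold (edgeR adjusted p = 1.32e-04 and 2.59e-06). Another gene overlaps 1 of the partners, which makes the values of this pair uncertain.

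On chromosome 2, the long gene Cre02.g107050 (minus strand, 4538505 to 4562233, 67 exon blocks) shares 513 bases with the plus-strand gene Cre02.g107000 (4534077 to 4539017), and another gene overlaps this pair as well. Cre02.g107050 measured 85.7, 88.2 and 93.7 CPM in WT, 29.4, 32.3 and 34.4 in crpaf1-1, and 52.1, 62.6 and 48.8 in crskip-1. Cre02.g107000 measured 2.95, 2.24 and 3.54 CPM in WT, 6.42, 5.19 and 4.28 in crpaf1-1, and 1.49, 1.54 and 1.72 in crskip-1. The long gene was lower in both mutants, by 2.79-fold and 1.63-fold, while its weak partner was 1.81-fold higher in crpaf1-1 and 1.86-fold lower in crskip-1 (edgeR adjusted p = 8.24e-11, 1.08e-06, 5.88e-04 and 0.00454). The ratio between the partners changed in crpaf1-1 (log2 2.32 ± 0.23 SE, limma adjusted p = 2.09e-08) and was not called in crskip-1 (log2 -0.09 ± 0.23 SE, limma adjusted p = 0.755).

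**Figure D4:**
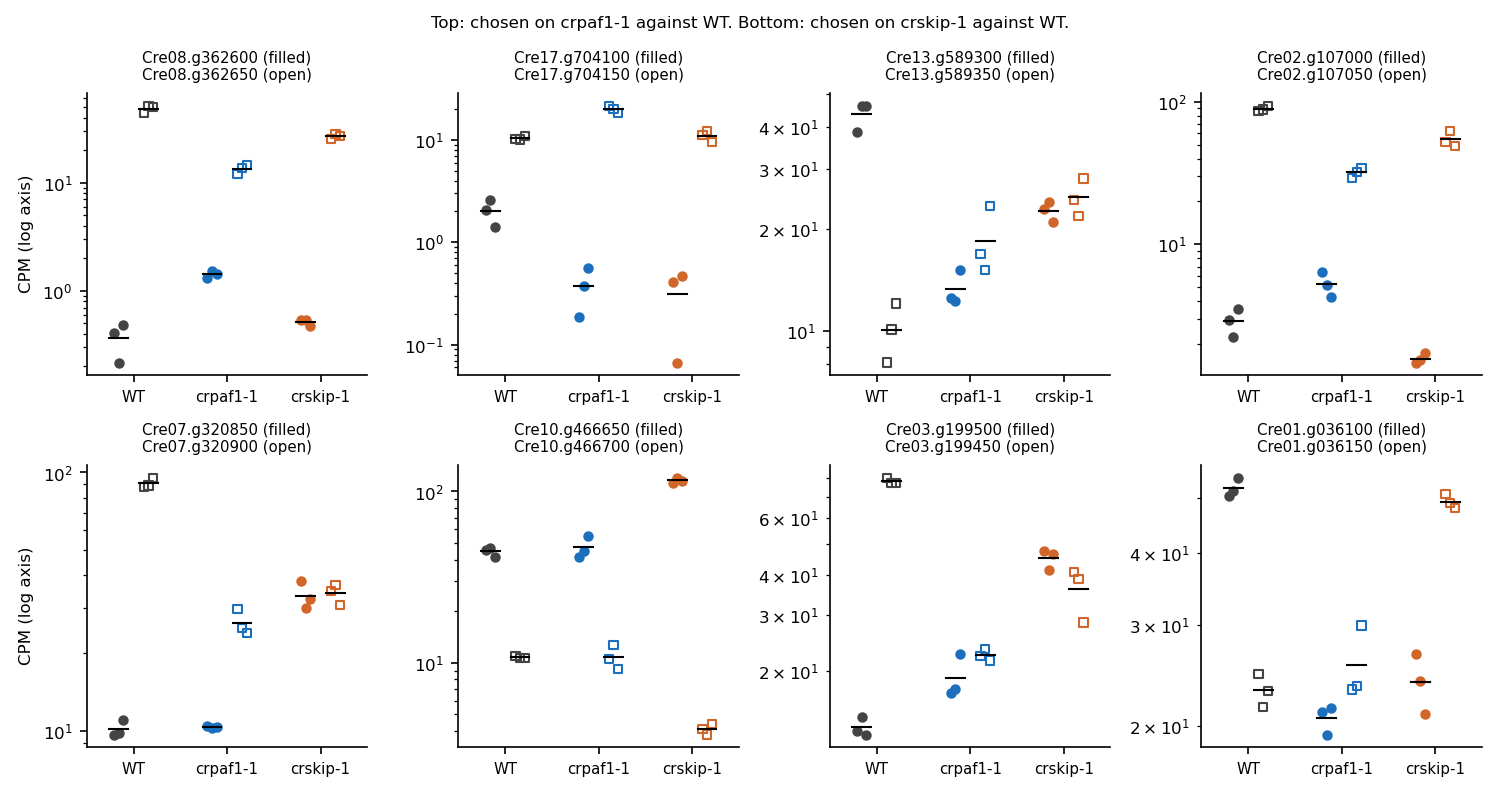
CPM on a log axis in each library for the 4 opposite pairs with the largest changes in crpaf1-1 (top) and in crskip-1 (bottom); filled circles are plus-strand partners, open squares minus-strand partners, and bars are means of 3 libraries. In each panel the partners move apart, toward each other or past each other between WT and the mutant on which the pair was chosen, as for Cre08.g362650, which goes from a mean of 48.4 CPM in WT to 13.4 in crpaf1-1.

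In crskip-1 the 4 opposite pairs with the largest changes all had both partners changed by 2-fold or more, and another gene overlaps each of them. The pair on chromosome 7 shares 538 bases. Its plus-strand gene Cre07.g320850 (1142888 to 1147841) measured 9.71, 9.84 and 11.0 CPM in WT, 10.5, 10.3 and 10.4 in crpaf1-1, and 38.0, 29.9 and 32.4 in crskip-1. Its minus-strand gene Cre07.g320900 (1147304 to 1150833) measured 87.8, 89.0 and 95.4 CPM in WT, 29.6, 25.0 and 23.9 in crpaf1-1, and 34.9, 36.7 and 30.7 in crskip-1. The first gene was high in crskip-1 alone among the groups, 3.28-fold above WT, with crpaf1-1 not called (edgeR adjusted p = 2.85e-10 and 0.842). The second was low in both mutants, 3.45-fold in crpaf1-1 and 2.65-fold in crskip-1 (edgeR adjusted p = 7.23e-12 and 3.12e-10). Per length, the partners stood at 4.32 and 39.0 RPKM in WT and came to nearly equal levels in crskip-1, at 14.2 and 14.7 RPKM.

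The pair on chromosome 10 shares 87 bases, and its partners moved apart in crskip-1. The plus-strand gene Cre10.g466650 (6698799 to 6701443) measured 45.8, 46.9 and 41.7 CPM in WT, 41.7, 45.0 and 54.8 in crpaf1-1, and 113, 120 and 115 in crskip-1. The minus-strand gene Cre10.g466700 (6701357 to 6705065) measured 10.9, 10.6 and 10.7 CPM in WT, 10.6, 12.7 and 9.16 in crpaf1-1, and 4.12, 3.81 and 4.39 in crskip-1. Both crpaf1-1 groups overlapped WT and were not called, and both crskip-1 groups lay clear of all other libraries. The pair was named for both comparisons of crskip-1, so this separation was a condition of its choice. The changes in crskip-1 were 2.59-fold up and 2.62-fold down (log2 1.37 ± 0.08 and -1.39 ± 0.14 SE, edgeR adjusted p = 4.65e-10 and 2.33e-07). The direct comparison of the mutants gave nearly the same sizes, 2.47-fold lower and 2.63-fold higher in crpaf1-1 (edgeR adjusted p = 4.65e-10 and 1.32e-07).

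The other 2 pairs of this kind lie on chromosomes 3 and 1. Cre03.g199500 (plus, 8280360 to 8282937) rose from 13.0, 14.4 and 12.7 CPM in WT to 47.4, 41.3 and 46.4 in crskip-1, 3.38-fold (edgeR adjusted p = 3.92e-10), with 17.1, 17.5 and 22.5 CPM in crpaf1-1. Its partner Cre03.g199450 (minus, 8282547 to 8285844) fell from 80.2, 77.1 and 77.2 CPM to 40.8, 38.7 and 28.4 in crskip-1 and to 22.3, 23.5 and 21.6 in crpaf1-1 (2.16-fold and 3.48-fold, edgeR adjusted p = 2.73e-08 and 4.19e-11). These partners share 391 bases, and all 3 groups are separate for both genes. Cre01.g036100 (plus, 5164935 to 5173016) fell from 50.3, 51.3 and 54.1 CPM to 26.7, 24.0 and 21.0 in crskip-1, 2.17-fold (edgeR adjusted p = 4.79e-09), and was 21.1, 19.3 and 21.5 CPM in crpaf1-1. Its partner Cre01.g036150 (minus, 5172662 to 5178413), over 355 shared bases, rose from 24.7, 21.6 and 23.0 CPM to 50.8, 48.9 and 48.0, 2.12-fold (edgeR adjusted p = 2.55e-08), and was not called in crpaf1-1 (edgeR adjusted p = 0.204). Here the partners exchanged places per length, from 7.37 and 5.55 RPKM in WT to 3.39 and 11.8 RPKM in crskip-1.

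**Figure D5:**
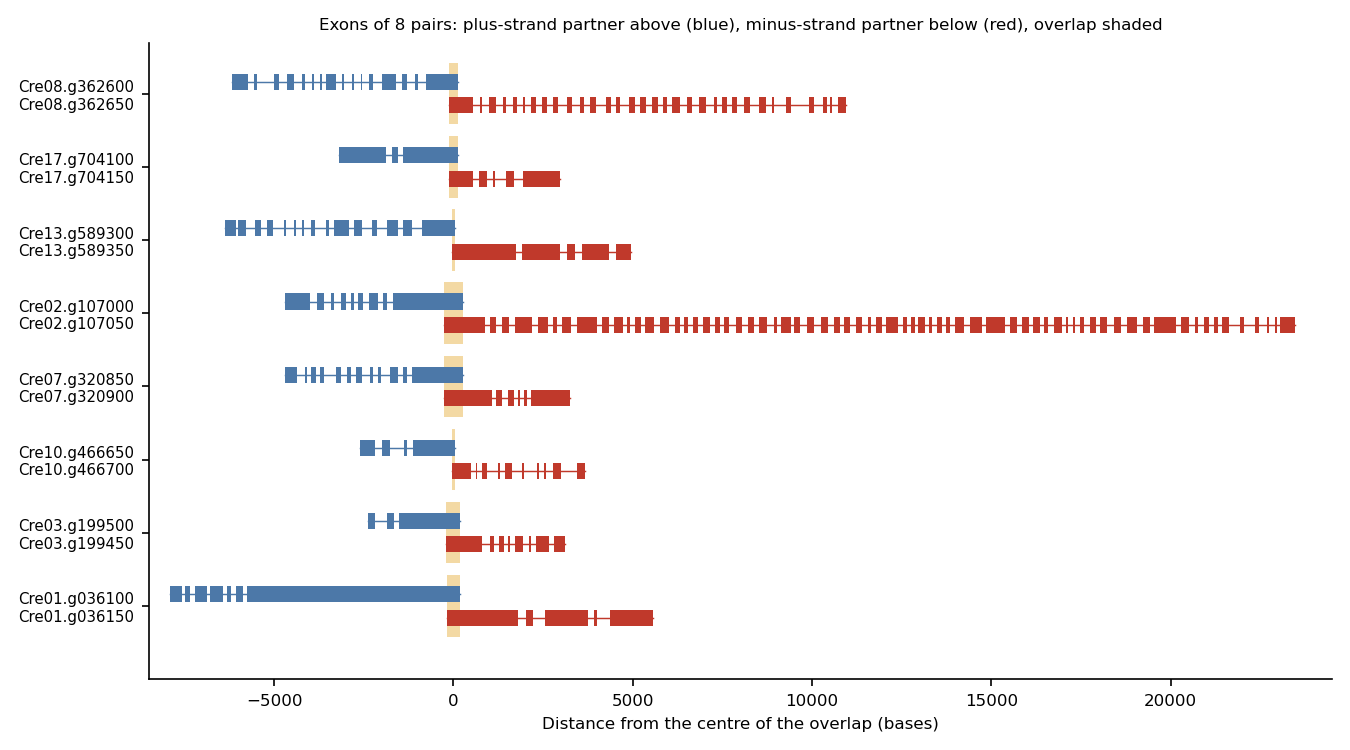
Exon blocks (boxes) and introns (lines) of the 8 opposite pairs whose CPM are plotted by library, in bases from the centre of the overlap; plus-strand partners are blue and above, minus-strand partners red and below, and the overlap is shaded. The shaded stretch, 87 to 538 bases, is a small part of each pair and lies in the last exon of both partners.

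Pairs that moved in opposite directions in both mutants were ranked by the smallest of their 4 changes, and the first 5 were the pair with Cre13.g589300 and 4 others. On chromosome 9, Cre09.g399911 (plus, 1450093 to 1454407) measured 66.3, 69.9 and 72.1 CPM in WT, 25.7, 24.6 and 24.7 in crpaf1-1, and 36.1, 39.2 and 31.3 in crskip-1. Its partner Cre09.g399912 (minus, 1454395 to 1471518), over a shared stretch of 13 bases and with no other gene, measured 2.20, 2.10 and 1.71 CPM in WT, 3.05, 3.50 and 3.67 in crpaf1-1, and 7.77, 8.09 and 8.23 in crskip-1. The groups were separate for both genes, but the strong partner was lowest in crpaf1-1 and the weak one highest in crskip-1. The weak partner was 4.0-fold higher in crskip-1 and 1.69-fold higher in crpaf1-1 (edgeR adjusted p = 9.29e-09 and 7.14e-04), while the strong one was 1.95-fold and 2.77-fold lower (edgeR adjusted p = 9.95e-09 and 2.68e-11).

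On chromosome 6, Cre06.g273450 (minus, 2951364 to 2954577) fell from 18.0, 17.9 and 20.9 CPM in WT to 2.95, 3.82 and 3.00 in crpaf1-1 and 6.89, 6.82 and 6.90 in crskip-1 (5.83-fold and 2.76-fold, edgeR adjusted p = 1.11e-11 and 8.26e-09). Its partner Cre06.g273413 (plus, 2944116 to 2952041) rose from 52.2, 63.4 and 60.5 CPM to 85.6, 89.1 and 92.6 and to 82.7, 84.0 and 99.5. Thus the rise was alike in the mutants (1.52-fold and 1.51-fold, edgeR adjusted p = 2.48e-06 and 5.38e-06; crpaf1-1 against crskip-1 log2 0.01 ± 0.07 SE, edgeR adjusted p = 0.935), while the fall was 2.11-fold deeper in crpaf1-1 than in crskip-1 (edgeR adjusted p = 3.42e-06). The partners share 678 bases, and another gene overlaps this pair. On chromosome 13, the gene Cre13.g604050 (plus, 4670376 to 4700576, 60 exon blocks) fell from 5.66, 5.28 and 5.37 CPM to 1.31, 1.70 and 1.22 in crpaf1-1 and 1.89, 2.14 and 2.19 in crskip-1 (3.85-fold and 2.62-fold, edgeR adjusted p = 2.56e-08 and 2.26e-06). Its partner Cre13.g604150 (minus, 4700434 to 4711034), over 143 shared bases, rose from 68.5, 72.7 and 82.7 CPM to 132, 133 and 137 in crpaf1-1, and measured 94.1, 98.3 and 144 in crskip-1. The crskip-1 libraries spread more than those of the other groups but all lay above WT (1.80-fold in crpaf1-1 and 1.50-fold in crskip-1, edgeR adjusted p = 5.17e-06 and 4.06e-04). The last of the 5, Cre03.g170800 and Cre03.g170850 on chromosome 3, joined a gene at 93.7 RPKM in WT that rose 1.73-fold and 1.45-fold to one at 0.736 RPKM that fell 1.62-fold and 1.71-fold, the latter with edgeR adjusted p = 0.0258 in both mutants. The calls of that second gene, Cre03.g170850, were lost in both mutants with DESeq2. In crpaf1-1 its call was also lost within lane 2 and without WT replicate 1, WT replicate 3 or crpaf1-1 replicate 2 (log2 -0.66, -0.62 and -0.52). In crskip-1 its call was lost without WT replicate 1 or 3 or crskip-1 replicate 2 or 3 (log2 -0.75, -0.71, -0.75 and -0.60).

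The largest shifts of the partner ratio were mostly made by 1 partner. In crpaf1-1, Cre01.g043800 (chromosome 1, minus, 6154942 to 6160554) rose from 7.63, 5.79 and 6.34 CPM in WT to 73.6, 65.2 and 66.1, with 18.2, 18.5 and 20.1 in crskip-1. All mutant libraries were above all WT libraries, 10.3-fold in crpaf1-1 and 2.85-fold in crskip-1 (edgeR adjusted p = 2.10e-14 and 3.81e-09). Its partner Cre01.g043750 (plus, 6147454 to 6155739) over 798 shared bases was 1.31-fold lower in crpaf1-1 and 1.16-fold lower in crskip-1 (edgeR adjusted p = 7.65e-05 and 0.0156). A similar pair lies on chromosome 12. There Cre12.g497500 (plus, 3440233 to 3444602) measured 0.405, 0.362 and 0.183 CPM in WT, 4.31, 3.82 and 3.33 in crpaf1-1, and 0.878, 1.20 and 1.41 in crskip-1. From this low WT level it was 11.9-fold higher in crpaf1-1 and 3.59-fold higher in crskip-1 (log2 3.57 ± 0.28 and 1.85 ± 0.37 SE, edgeR adjusted p = 9.88e-09 and 5.22e-04). Its partner Cre12.g497450 (minus, 3444042 to 3449067) was 1.50-fold lower in crpaf1-1 and 1.23-fold higher in crskip-1 (edgeR adjusted p = 7.37e-04 and 0.0472). Another gene overlaps each of these pairs.

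Among the largest ratio shifts, 2 rested on genes near 0 in WT. Cre02.g079050 (chromosome 2, plus, 915881 to 920243) had 0 counts in all 3 WT libraries, 173 counts in crpaf1-1 and 64 in crskip-1, with 3.05, 2.91 and 2.94 CPM and 1.35, 1.81 and 1.33 CPM. Taken against the limit that a count of 0 allows, 3 counts over the WT group, it was at least 47.1-fold higher in crpaf1-1 and at least 23.8-fold higher in crskip-1, for counting error only. Its partner Cre02.g079100 (minus, 920217 to 923121), which shares 27 bases with it, was at 3.53, 3.76 and 4.69 CPM in WT and at 4.27, 3.76 and 4.11 in crpaf1-1, where it was not called (edgeR adjusted p = 0.921). In crskip-1 this partner was 1.37-fold higher than in WT (edgeR adjusted p = 0.0184). That call was lost with DESeq2, with library size alone, within lane 2, and without WT replicate 1 or 2 or crskip-1 replicate 1 (log2 0.36, 0.42 and 0.36). Cre17.g716026 (chromosome 17, plus, 2553780 to 2555810), a gene of 1 exon block, had 2 counts over the 3 WT libraries, 113 in crpaf1-1 and 87 in crskip-1. The ratios were 46.1 (95% exact interval 12.5 to 386, counting error only) and 48.6 (13.1 to 408). Its partner Cre17.g716050 (minus, 2555753 to 2563830), over 58 shared bases, was 1.23-fold and 1.21-fold higher (edgeR adjusted p = 0.0142 and 0.0331). Another gene overlaps each of these 2 pairs. The crskip-1 call of Cre17.g716050 was lost with DESeq2, with library size alone, within lane 2, and without WT replicate 1 or 2 or crskip-1 replicate 1 or 3 (log2 0.19, 0.26, 0.25 and 0.25).

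The remaining large shift in crskip-1 came from a gene with wide spread. Cre08.g367400 (chromosome 8, minus, 1874560 to 1876960) measured 10.1, 2.10 and 12.3 CPM in WT, 3.80, 1.22 and 1.00 in crpaf1-1, and 1.08, 0.267 and 0.549 in crskip-1. Replicate 2 of WT stood apart from the other WT libraries and overlapped crpaf1-1, while all crskip-1 libraries were below all WT libraries (13.0-fold, log2 -3.70 ± 0.63 SE, edgeR adjusted p = 1.08e-04). Its partner Cre08.g367350 (plus, 1870651 to 1874719), over 160 shared bases and with no other gene, measured 12.7, 15.2 and 12.3 CPM in WT, 17.2, 15.4 and 15.9 in crpaf1-1, and 16.8, 20.2 and 17.4 in crskip-1. That gene was 1.36-fold higher in crskip-1 (edgeR adjusted p = 0.00117).

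The direct comparison of the mutants gave pairs in which the ratio had shifted one way in crpaf1-1 and the other way in crskip-1. On chromosome 3, Cre03.g169200 (plus, 3739805 to 3742083) measured 9.25, 9.47 and 7.93 CPM in WT, 3.05, 1.70 and 2.39 in crpaf1-1, and 10.7, 8.69 and 11.1 in crskip-1. Its partner Cre03.g169250 (minus, 3742076 to 3748237), which shares 8 bases with it, measured 1.16, 1.37 and 1.28 CPM in WT, 1.83, 2.12 and 2.17 in crpaf1-1, and 0.675, 0.936 and 0.549 in crskip-1. The first gene was low in crpaf1-1 alone, and the second was high in crpaf1-1 and low in crskip-1. In crpaf1-1 against crskip-1 they were 4.21-fold lower and 2.77-fold higher (edgeR adjusted p = 1.75e-08 and 1.17e-04). Another gene overlaps this pair.

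On chromosome 5, Cre05.g244350 (plus, 540108 to 542643) measured 8.38, 8.32 and 8.23 CPM in WT, 11.6, 11.2 and 9.0 in crpaf1-1, and 5.74, 4.28 and 3.13 in crskip-1. Its partner Cre05.g244400 (minus, 542429 to 544964), over 215 shared bases and with no other gene, measured 8.78, 7.45 and 7.38 CPM in WT, 8.25, 7.95 and 5.78 in crpaf1-1, and 17.3, 18.2 and 17.0 in crskip-1. These partners stood at like levels in WT (4.55 and 5.37 RPKM) and far apart in crskip-1 (2.40 and 11.9 RPKM). The first was 1.28-fold higher in crpaf1-1 and 1.87-fold lower in crskip-1 (edgeR adjusted p = 0.0376 and 2.08e-04). The second was not called in crpaf1-1 and was 2.22-fold higher in crskip-1 (edgeR adjusted p = 0.517 and 4.83e-07). On chromosome 2, Cre02.g091650 (plus, 2454850 to 2460880) was at 2.37, 2.68 and 2.26 CPM in WT, 3.89, 3.29 and 3.89 in crpaf1-1, and 1.49, 1.27 and 1.41 in crskip-1. Its partner Cre02.g091700 (minus, 2460768 to 2464490) had means of 121 ± 2.56 CPM, 102 ± 13.3 CPM and 229 ± 2.18 CPM in these groups (SD, n = 3). Both genes were called in both mutants, each in the direction opposite to its partner and opposite to its own direction in the other mutant (edgeR adjusted p = 0.00406, 0.00359, 0.00623 and 6.28e-09). The overlap here is 113 bases, again with no other gene.

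On chromosome 16, 2 pairs included a plus-strand gene that was low in crskip-1. Cre16.g668700 (plus, 4360438 to 4368258) measured 4.05, 4.92 and 3.54 CPM in WT, 8.11, 10.2 and 12.1 in crpaf1-1, and 0.878, 0.869 and 1.02 in crskip-1, so that the groups were separate. It was 2.44-fold higher in crpaf1-1 and 4.48-fold lower in crskip-1 than in WT (edgeR adjusted p = 1.69e-06 and 1.68e-06), and the mutants differed 10.9-fold (log2 3.45 ± 0.21 SE, edgeR adjusted p = 6.91e-10). Its partner Cre16.g668650 (minus, 4367976 to 4372091), over 283 shared bases, was 1.31-fold and 1.36-fold above WT (edgeR adjusted p = 0.0162 and 0.0109), and the mutants were not called different (log2 -0.06 ± 0.13 SE, edgeR adjusted p = 0.729). Cre16.g676150 (plus, 6288319 to 6291968) measured 2.72, 3.25 and 3.60 CPM in WT, 3.19, 3.18 and 3.89 in crpaf1-1, and 0.743, 0.468 and 0.0784 in crskip-1. The crskip-1 level was near 0 and 7.03-fold below WT (log2 -2.81 ± 0.34 SE, edgeR adjusted p = 2.30e-06), so the size of this change is imprecise. Its partner Cre16.g676100 (minus, 6291505 to 6295740), over 464 shared bases and with another gene overlapping the pair, was 1.88-fold lower in crpaf1-1 (edgeR adjusted p = 1.61e-05) and was not called in crskip-1 (edgeR adjusted p = 0.0679).

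Among the pairs named for joint rises, most changes were under 2-fold. In crpaf1-1 the largest joint rise was that of Cre10.g428950 (chromosome 10, plus, 1558957 to 1563210) and Cre10.g428966 (minus, 1562366 to 1572151), which share 845 bases and which no other gene overlaps. Cre10.g428950 measured 5.43, 5.21 and 6.52 CPM in WT, 10.9, 14.1 and 13.7 in crpaf1-1, and 1.69, 2.67 and 2.12 in crskip-1. Cre10.g428966 measured 24.9, 24.6 and 25.1 CPM in WT, 52.5, 47.9 and 53.0 in crpaf1-1, and 38.0, 40.3 and 41.4 in crskip-1. Both rose in crpaf1-1, 2.25-fold and 2.06-fold, and in crskip-1 the first fell 2.65-fold while the second rose 1.60-fold (edgeR adjusted p = 1.01e-06, 3.73e-10, 8.87e-06 and 2.47e-07). The next joint rises in crpaf1-1 were Cre07.g333100 with Cre07.g333150, at 1.80-fold and 1.60-fold, and Cre10.g428678 with Cre10.g428692, at 1.57-fold and 1.66-fold. At least 1 other gene overlaps each of these last pairs. In crskip-1 the largest were Cre02.g078550 with Cre02.g078600, at 1.90-fold and 1.76-fold, then Cre12.g502050 with Cre12.g502000 (overlapped by another gene), at 1.43-fold and 1.89-fold, and Cre12.g495500 with Cre12.g495450, at 1.42-fold and 1.70-fold. Of these, Cre12.g495450 was 2.68-fold lower in crpaf1-1 (edgeR adjusted p = 3.52e-10).

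Among the pairs named for joint decreases, most changes were over 2-fold. In crpaf1-1, Cre07.g329500 (chromosome 7, plus, 2485351 to 2490892) fell from 2.89, 3.11 and 3.41 CPM in WT to 1.64, 1.06 and 0.666, and its partner Cre07.g329550 (minus, 2490074 to 2502186) from 12.7, 13.8 and 13.7 CPM to 4.36, 4.19 and 3.67, over 819 shared bases. The groups were separate for both, at 2.73-fold and 3.27-fold (edgeR adjusted p = 1.14e-04 and 1.06e-08). Cre12.g492850 with Cre12.g492851 fell 3.32-fold and 2.58-fold in crpaf1-1, and Cre06.g258500 with Cre06.g258550 fell 2.55-fold and 2.72-fold. At least 1 other gene overlaps each of these last pairs. In crskip-1, Cre10.g440600 (chromosome 10, plus, 3015960 to 3019943) fell from 11.2, 11.9 and 12.2 CPM to 6.48, 4.01 and 6.11, and its partner Cre10.g440650 (minus, 3019545 to 3022063) from 5.72, 3.98 and 6.1 CPM to 1.62, 1.47 and 0.940, over 399 shared bases (2.13-fold and 3.89-fold, edgeR adjusted p = 5.18e-06 and 1.15e-06). Both were low in crpaf1-1 too, at 5.20, 5.78 and 5.17 CPM and at 1.03, 0.954 and 0.944 CPM. Another gene overlaps this pair. Cre02.g104400 with Cre02.g104450, which share 786 bases on chromosome 2 and which 2 other genes overlap, fell 8.68-fold and 2.03-fold in crskip-1 (edgeR adjusted p = 9.84e-12 and 0.00262). Of these, Cre02.g104400 was at 19.2, 19.2 and 18.1 CPM in WT, 19.3, 18.8 and 18.4 in crpaf1-1, and 2.70, 1.87 and 1.88 in crskip-1, so that it was low in crskip-1 alone. The pair with the shortest overlap of all, 1 base, was also among the largest joint decreases in crskip-1: Cre17.g731466 and Cre17.g731500, on chromosome 17, fell 3.00-fold and 2.01-fold (edgeR adjusted p = 2.79e-05 and 8.24e-04). Another gene overlaps this pair too.

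Between the mutants, the joint differences of the named pairs were 1.65-fold to 3.29-fold. Cre12.g486750 (chromosome 12, plus, 1636290 to 1638264) was at 18.3, 15.5 and 19.4 CPM in WT, 2.06, 3.50 and 3.05 in crpaf1-1, and 5.81, 6.42 and 4.0 in crskip-1. Its partner Cre12.g486700 (minus, 1637938 to 1641537), over 327 shared bases, was at 15.3, 15.2 and 11.5 CPM in WT, 11.2, 11.5 and 13.9 in crpaf1-1, and 23.3, 26.5 and 27.7 in crskip-1. Both were lower in crpaf1-1 than in crskip-1, 1.92-fold and 2.12-fold (edgeR adjusted p = 7.17e-04 and 2.63e-07), though in crskip-1 against WT they moved in opposite directions. Cre12.g492850 with Cre12.g492851, which 2 other genes overlap, was 1.79-fold and 3.29-fold lower in crpaf1-1 than in crskip-1. Cre10.g427300 with Cre10.g427350, which another gene overlaps, was 2.23-fold and 1.79-fold lower. The largest joint increases were Cre17.g802064 with Cre17.g802065, at 1.83-fold and 2.32-fold, Cre17.g733208 with Cre17.g733250, at 1.65-fold and 1.67-fold, and Cre16.g801907 with Cre16.g801908, at 1.65-fold and 1.85-fold. In the last of these the minus-strand gene lies wholly inside the span of the other and shares no exonic base with it, and its call was lost without crskip-1 replicate 2 (log2 0.60).

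The longest overlaps did not share a pattern of change. The longest with both partners tested and neither gene inside the other, 5425 bases, joined Cre13.g592050 (chromosome 13, plus, 4254187 to 4259726) to Cre13.g592100 (minus, 4254302 to 4264247). Cre13.g592050 measured 28.7, 27.8 and 25.1 CPM in WT, 31.1, 28.1 and 29.7 in crpaf1-1, and 27.1, 28.2 and 27.0 in crskip-1, and was called in neither mutant (edgeR adjusted p = 0.136 and 0.884). Cre13.g592100 measured 10.1, 10.6 and 12.1 CPM in WT, 12.8, 12.3 and 14.3 in crpaf1-1, and 8.04, 5.35 and 7.92 in crskip-1. It was lower in crskip-1 alone, 1.54-fold (edgeR adjusted p = 0.00106), against 1.20-fold above WT in crpaf1-1 (edgeR adjusted p = 0.0709), which passed with the replicate number as a block (log2 0.27), with library size alone (0.35) and without WT replicate 3 or crskip-1 replicate 2 (0.34 and 0.26). On chromosome 12, Cre12.g498400 (plus, 3348917 to 3359986) and Cre12.g498350 (minus, 3354667 to 3360264) share 5320 bases of span and 547 exonic bases. Cre12.g498350 was at 30.3, 28.8 and 32.7 CPM in WT, 44.5, 42.4 and 44.9 in crpaf1-1, and 22.6, 21.6 and 22.8 in crskip-1, so that it rose in one mutant and fell in the other (1.43-fold and 1.37-fold, edgeR adjusted p = 2.08e-06 and 3.70e-05). Cre12.g498400 overlapped WT in both mutants and was 1.23-fold lower in crpaf1-1 (edgeR adjusted p = 0.0337). That call was lost with DESeq2, with library size alone, within lane 2, and without WT replicate 1 or 2 or crpaf1-1 replicate 1 or 2 (log2 -0.18, -0.31, -0.27 and -0.25). On chromosome 17, Cre17.g741700 (plus, 5875831 to 5888506) and Cre17.g741750 (minus, 5883199 to 5899782) share 5308 bases, 4080 of them exonic in both. They fell together, 3.04-fold and 2.29-fold in crpaf1-1 and 2.03-fold and 1.71-fold in crskip-1 (edgeR adjusted p = 5.82e-07, 3.54e-08, 1.12e-04 and 1.03e-05), and their ratio was not called in either mutant (limma adjusted p = 0.133 and 0.280).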

How the data were processed

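Each library has 1 table of raw counts as deposited by the authors, in whole numbers and not normalized, with the exons of each gene. Bowtie2 and featureCounts are named in the submitters' processing notes. The alignments counted were unique ones without duplicates, per the file headers. Of versions, the strand setting and reads in 2 genes, the sources used here say nothing. Removal of duplicates lowers the counts of abundant genes most.

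Pairs were built from the deposited starts, ends and strands. Genes were tested with edgeR 4.0.16 (R 4.3.3, TMM, default filterByExpr, quasi-likelihood, all 9 libraries, no covariates). Partner ratios were tested with limma 3.58.1 (prior count 2, variance trend on the weaker partner). Both were run on simulated data in which few genes changed, none at low counts, with as many up as down. That run does not check the scaling or the calls where many genes change. SE of a gene is its log2 fold change over the square root of F. CPM use TMM-scaled library sizes, and RPKM divide by exonic bases not shared with other genes. The partner levels given for the 8 wholly covered member genes are an exception, with total counts and all exonic bases. Fold changes are fitted values. Total counts were 13907142 to 19725439 per library, and their number limits the precision of weak genes. Replicates differed by more than counting noise (chi-square per degree of freedom 2.35 to 4.00), so none was counted as a repeat.

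Pairs named for each comparison were the 4 opposite pairs with the largest smaller change, among those whose groups do not overlap, the 3 with both partners higher and the 3 with both lower ranked the same way, and the 3 with the largest called change of ratio. The 3 longest overlaps with neither gene inside the other and the 5 pairs opposite in both mutants ranked by their smallest change were named as well. The members and these lists were chosen with earlier results of these data known. Alternatives were RLE size factors, library size alone, DESeq2 1.42.0, no filter, a replicate block, lane 2 alone, each library left out, an adjusted p under 0.01, overlap of exons, pairs without one gene inside the other or without another gene overlapping them, a prior count of 0.5 and no variance trend. The reference table, of assembly Chlamydomonas_reinhardtii_v5.5, matched 13245 of the listed IDs and gave no symbols; no sequence was used here.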

Additional observations from a re-analysis of the deposited data

Results flagged for a closer look

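In 7 of the named pairs the partner ratio shifted in opposite directions in the mutants, with both shifts from WT and the difference between the mutants past the threshold of limma's test (Benjamini-Hochberg adjusted over 12357 pairs). The difference, as the log2 plus-to-minus ratio in crpaf1-1 minus that in crskip-1, was 3.50 for Cre16.g676150 and Cre16.g676100, 3.33 for Cre16.g668700 and Cre16.g668650, and 3.02 for Cre02.g104400 and Cre02.g104450. It was 2.54 for Cre05.g244350 and Cre05.g244400, 2.50 for Cre02.g091650 and Cre02.g091700, -1.24 for Cre12.g498400 and Cre12.g498350, and -3.45 for Cre03.g169200 and Cre03.g169250. Against WT, the shifts of the last pair were -2.52 ± 0.30 in crpaf1-1 and 0.94 ± 0.30 in crskip-1 (SE, limma adjusted p = 4.97e-07 and 0.0146). Those of Cre02.g104400 and Cre02.g104450 were 0.93 ± 0.24 and -2.09 ± 0.24. The shift of Cre12.g498400 and Cre12.g498350 in crskip-1 was not called without WT replicate 3 (0.30). Most of these pairs were named because of a large difference between the mutants, so their number says nothing about how common such pairs are.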

How the results depend on the processing

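Over the counts of genes and pairs and the shares of counts, 289 alternative values stayed within 1.5 times or 1 SD of the reported one and 26 did not. Leaving out pairs that another gene overlaps left 671 of the 1463 tested pairs. It gave 396 members higher and 441 lower in crpaf1-1 against WT, 374 and 352 in crskip-1 against WT, and 357 and 432 between the mutants. Opposite and same-direction pairs then numbered 112 and 110, 88 and 84, and 91 and 101, and changed ratios 390, 352 and 367. As shares of the tested pairs these values moved little. Opposite pairs were 16.7%, 13.1% and 13.6%, against 17.2%, 13.1% and 14.3% of all 1463. Same-direction pairs were 16.4%, 12.5% and 15.1%, against 15.9%, 12.1% and 15.5%. Changed ratios were 58.1%, 52.5% and 54.7%, against 57.7%, 53.5% and 54.7%. The share of counts then differed from WT by -0.233 percentage points in crpaf1-1 and 0.0392 in crskip-1; the cause was not tested. An adjusted p under 0.01 left 152 opposite and 150 same-direction pairs in crpaf1-1, 109 and 100 in crskip-1, and 127 and 129 between the mutants. Library size alone gave 439 members higher in crskip-1 against WT, and 1398 higher and 496 lower between the mutants.

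Leaving out 1 library at a time gave 195 to 262 opposite pairs in crpaf1-1, 152 to 192 in crskip-1 and 162 to 221 between the mutants. Same-direction pairs then numbered 186 to 237, 131 to 165 and 171 to 233. Over all alternatives, opposite pairs numbered 112 to 275 in crpaf1-1, 88 to 205 in crskip-1 and 91 to 221 between the mutants. Same-direction pairs numbered 110 to 260, 84 to 201 and 101 to 313, so the balance between the mutants depended on the setting. Of the named genes and ratios, 32 values lost and 5 gained a call under some alternative. Reversed signs were confined to 4 changes near 0. Cre02.g079100 in crpaf1-1 became -0.11 within lane 2 and -0.074 to 0.15 without single libraries. Cre16.g668650 between the mutants became 0.15 with library size alone and -0.18 to 0.10 without single libraries. Cre13.g592050 in crskip-1 became -0.11 with library size alone and -0.050 to 0.050 without single libraries, and Cre12.g498400 in crskip-1 0.024 within lane 2 and -0.12 to 0.090 without single libraries.

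Replicate 1 of each group was the library of lane 3, and replicates 2 and 3 shared lane 2, so the number carries the lane in part. The 3 pairs of replicate 1 libraries correlated at 0.255, 0.123 and 0.177 in their deviations from the group means, and 1 of the 6 same-number pairs of replicates 2 and 3 was over 0.1. The numbers as a whole were not taken to pair the libraries. The same number correlated best in 12 of 18 cases, as a hint from the data. With the replicate number as a block, 895 members were higher and 994 lower in crpaf1-1, 845 and 812 in crskip-1, with 274 and 205 opposite pairs. Depth limits genes near 0 in a group, as for Cre02.g079050 and Cre17.g716026 in WT and for Cre17.g704100 and Cre16.g676150 in crskip-1.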
